A study of Mus musculus with 12 samples.

Results

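The major histocompatibility complex (MHC) of the mouse lies on chromosome 17, and the data described here are the DNA methylation levels of the CpGs in the stretch of chromosome 17 that holds its class I K end, class II and class III genes. The members were chosen by position alone: every CpG of a fixed interval with at least 10 reads in all 12 samples, the first at 33902923 and the last at 35485696 in the mm9 build, which gave 2242 of the 760348 CpGs measured that deeply across the genome. A further 2198 CpGs of the interval reached 10 reads only after the reads of both mice were summed, so that 4440 of the 1639598 CpGs of the wider deposited table fall in the interval. Those further CpGs are used for description only, with no test.

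The series followed DNA methylation in B cells as they divided after exposure to lipopolysaccharide (LPS), a bacterial cell wall component that makes B cells divide and become antibody-secreting cells. Resting splenic B cells, sorted as B220+ CD43- from naive C57/BL6J mice per the series' design text, were loaded with a dye (CFSE or CTV) that daughter cells share out, so that it dims with every division, and transferred into uMT hosts, mice that make no mature B cells of their own. The sample labels give the strain B6.SJL-Ptprca Pepcb/BoyJ, female, 8 weeks of age, and do not say whether this is the donor or the host. Other cells had divided 1, 3 or 5 times (Div1, Div3, Div5). Cells that had divided at least 8 times were split by the plasma cell surface protein CD138 (syndecan-1) into Div8neg, without it, and Div8pos, with it. Undivided transferred cells, Div0, came from the same LPS-treated hosts, so no group of this series is free of LPS or of transfer. Each of the 6 fractions was sorted from the spleens of the same 2 hosts, numbers 196 and 197, 3 days after LPS, and n = 2 hosts stands behind every mean ± SD below.

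Methylation was read by reduced representation bisulfite sequencing, which samples CpG-rich fragments cut at the enzyme sites of MspI and TaqI and reports, for each CpG, the share of reads that keep the cytosine. Neighbouring CpGs of a fragment share reads and are not independent. Median coverage of the interval's CpGs was 21 to 59 reads per sample in host 196 and 48 to 69 reads in host 197. The ranges overlap, but host 197 was read more deeply in every fraction, so host and depth go together within a fraction. Depth also differed between fractions: in host 196 it was 59 reads in Div3 and 37 in Div8pos, against 21 in Div0. In such bulk fractions a level between 0% and 100% cannot separate partial loss in all cells from full loss in some of them. Genes are named by the nearest transcription start site in the files, within 50 kb, and positions are in mm9.

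The MHC holds the genes by which cells show peptides to T cells. Class I molecules (H2-K, H2-D and the H2-Q family) present peptides made by the proteasome and pumped into the endoplasmic reticulum by the Tap transporter. Class II molecules (I-A and I-E) present ingested antigen on B cells, dendritic cells and macrophages, after H2-M, a dimer of H2-DMa with an H2-DMb chain, has helped to load them and H2-O has held H2-M in check. Class II genes are switched on by the coactivator Ciita, which binds factors sitting on a short set of promoter boxes, and plasma cells are known for shutting Ciita and class II off. Between class II and the D end lie the class III genes, among them complement components and tumour necrosis factor family ligands. The interval covers these in that order, from the K end through class II and class III to the first D and Q genes, and the nearest start sites in the files placed the named genes accordingly.

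The start sites of these genes differ in CpG content, and this decides what bisulfite reads can say about them. Shown here are the promoters of the genes that the results below turn on, from 250 bases before to 50 bases after the start site, taken from RefSeq on GRCm38.p6, 5′ to 3′ along each gene's own strand, with CpGs in capitals. Their coordinates are of that build and were not converted to the mm9 positions of the measurements. The Psmb9 window is chr17:34187281-34187580 on the minus strand, and that of the class I gene H2-K1 is chr17:34000298-34000597 on the minus strand. The H2-D1 window is chr17:35262844-35263143, that of H2-DMb1 is chr17:34152941-34153240 and that of H2-Eb1 is chr17:34305617-34305916, all on the plus strand.
H2-K1: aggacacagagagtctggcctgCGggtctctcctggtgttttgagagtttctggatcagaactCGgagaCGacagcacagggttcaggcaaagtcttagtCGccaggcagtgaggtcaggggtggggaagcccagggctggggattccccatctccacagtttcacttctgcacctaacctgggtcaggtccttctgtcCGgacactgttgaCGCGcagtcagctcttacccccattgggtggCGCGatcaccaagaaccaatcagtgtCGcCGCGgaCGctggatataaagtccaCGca
H2-D1: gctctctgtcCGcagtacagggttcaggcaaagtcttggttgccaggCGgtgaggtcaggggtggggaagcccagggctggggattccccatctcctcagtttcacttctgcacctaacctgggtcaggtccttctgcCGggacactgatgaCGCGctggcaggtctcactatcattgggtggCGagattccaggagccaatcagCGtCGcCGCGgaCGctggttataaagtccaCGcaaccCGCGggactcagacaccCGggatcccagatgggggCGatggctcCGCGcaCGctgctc
Psmb9: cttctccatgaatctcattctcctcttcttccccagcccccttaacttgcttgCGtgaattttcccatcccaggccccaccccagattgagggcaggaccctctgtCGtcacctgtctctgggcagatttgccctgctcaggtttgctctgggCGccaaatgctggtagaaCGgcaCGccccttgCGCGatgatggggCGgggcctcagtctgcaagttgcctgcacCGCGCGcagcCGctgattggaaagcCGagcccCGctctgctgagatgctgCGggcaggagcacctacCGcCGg
H2-DMb1: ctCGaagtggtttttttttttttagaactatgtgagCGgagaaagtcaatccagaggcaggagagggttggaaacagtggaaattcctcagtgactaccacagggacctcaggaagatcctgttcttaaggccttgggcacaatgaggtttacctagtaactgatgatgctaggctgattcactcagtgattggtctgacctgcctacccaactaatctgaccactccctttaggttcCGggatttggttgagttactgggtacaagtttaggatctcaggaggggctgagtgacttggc
H2-Eb1: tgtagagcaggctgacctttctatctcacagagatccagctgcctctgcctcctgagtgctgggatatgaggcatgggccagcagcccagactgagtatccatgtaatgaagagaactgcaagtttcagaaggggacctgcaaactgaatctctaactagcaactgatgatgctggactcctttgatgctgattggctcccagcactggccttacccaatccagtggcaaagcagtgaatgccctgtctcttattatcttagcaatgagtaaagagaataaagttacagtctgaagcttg
The H2-K1, H2-D1 and Psmb9 windows hold 14, 19 and 17 CpGs, against 3 in the H2-DMb1 window and 0 in that of H2-Eb1. Over all 32851 promoters of the table the median was 7 CpGs, 36.3% held 14 or more and 31.4% held at most 3. Each of the 5 windows also holds ATTGG on one strand or the other, the core of the box bound by the factor NF-Y (searched as ATTGG on both strands), as do 37.4% of all promoters of the same length. Of 17 class I, class II and processing genes looked up, 13 had a promoter in the table.

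Across the interval the mean methylation level was 40.7 ± 0.50%, 40.5 ± 0.35%, 40.2 ± 0.42%, 39.9 ± 0.41%, 38.3 ± 0.38% and 35.7 ± 0.88% in Div0, Div1, Div3, Div5, Div8neg and Div8pos. By these means, in which each CpG counts alike, the differences from Div0 were small through 5 divisions and largest in cells that had divided at least 8 times. From summed reads, in which deeply read CpGs count more, the differences from Div0 at Div1, Div3, Div5, Div8neg and Div8pos were -1.59, -2.64, -1.75, -4.55 and -5.53 points, so that the size of the early differences depends on the measure. Within hosts, Div8pos was 4.71 points lower than Div0 in host 196 and 5.25 points lower in host 197, while Div8neg was 2.45 and 2.28 points lower. The loss at Div8pos was smaller than over all CpGs of the genome-wide table, where it averaged 6.11 points. That average includes many CpGs that were unmethylated to begin with, which made up 54.9% of the interval's CpGs (under 20% at Div0), against 38.6% of all. Among the 1012 CpGs of the interval with at least 20% methylation at Div0, the mean difference of Div8pos from Div0 was -11.03 ± 0.28 points, and among all such CpGs of the genome it was -9.86 ± 0.31 points.

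**Figure D1:**
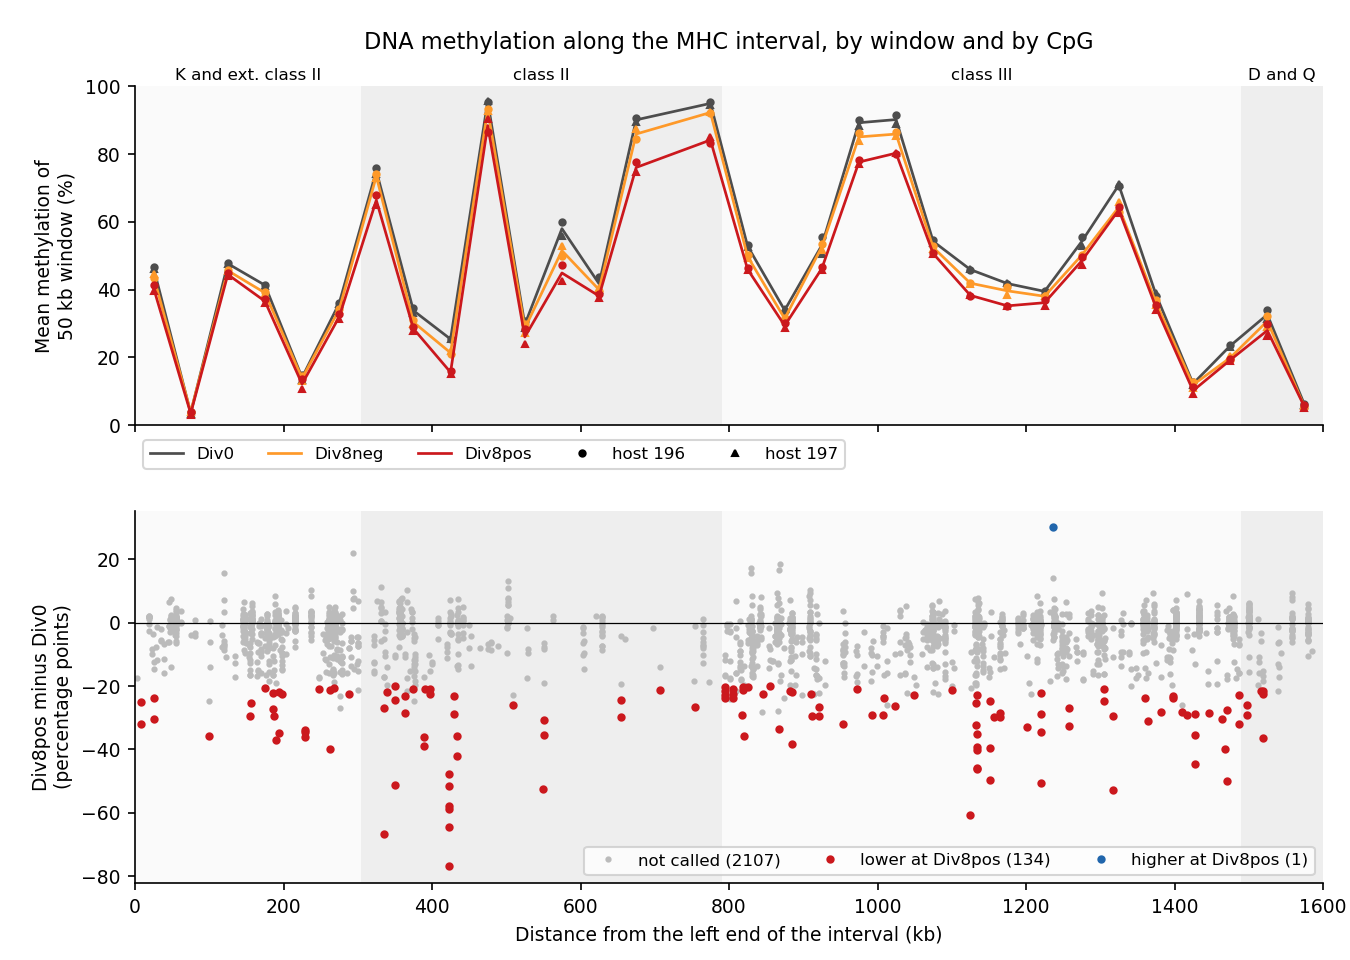
Methylation along the MHC interval. The upper panel gives the mean methylation (%) of 50 kb windows with at least 5 CpGs in Div0, Div8neg and Div8pos, with a point for each host and a line through the means, and the lower panel gives each CpG's difference between Div8pos and Div0 in percentage points against distance from the left end (kb), with the 134 CpGs called lower in red and the 1 called higher in blue. CpGs called lower lie in all 4 segments of the interval.

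At single CpGs, 134 were lower and 1 was higher in Div8pos than in Div0 (quasi-binomial model of methylated and unmethylated reads over all 12 samples, Benjamini-Hochberg adjusted p under 0.05 over all 760348 CpGs, and a difference of at least 20 points). All 134 were lower in both hosts, which largely follows from how they were called. They made up 5.98% of the interval's CpGs, beside 6.61% of all CpGs called lower and 0.0271% called higher. Restricted to CpGs with at least 20% at Div0, the share was 13.2% in the interval and 10.8% over all. Between Div8neg and Div0, 20 CpGs were lower and 1 was higher, beside 0.781% and 0.0397% of all CpGs. Between Div8pos and Div8neg, 13 were lower and 0 higher, with 285 of the 2242 at an unadjusted p under 0.05, beside 0.636% of all CpGs called lower and 0.00697% called higher. Earlier divisions gave few calls: 2 lower and 1 higher at Div5 (0.123% and 0.00552% of all CpGs), and 0 in either direction at Div3 and Div1, where 126 and 136 CpGs had an unadjusted p under 0.05 and 0.027% and 0% of all CpGs were called lower and 0.00118% and 0% higher. These calls borrow the spread from the whole table, and with each CpG's own spread from 12 samples none of the 760348 CpGs was called. They also lean on 1 library: without the Div0 sample of host 197, 42 CpGs were called lower in Div8pos than in Div0 and 4 in Div8neg than in Div0. Without the Div8neg sample of host 197 the 20 and 13 CpGs became 7 and 4, and without the Div8pos sample of host 197 the 13 became 3.

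The loss was not even along the interval. Of the methylated CpGs (at least 20% at Div0), 32 of 136 in the class II segment were called lower in Div8pos than in Div0, which is 23.5%. In the class III segment it was 73 of 628 (11.6%), in the K and extended class II segment 23 of 224 (10.3%), and in the short D and Q segment 6 of 24 (25%), all beside 10.8% of all methylated CpGs. Mean levels went the same way. Methylated CpGs of the class II segment averaged 72.2 ± 0.07% in Div8pos, against 87.5 ± 1.13% in Div0, a difference of 15.4 ± 1.2 points (16.2 in host 196 and 14.5 in host 197). The D and Q segment lost 15.5 ± 1.33 points, class III 10.3 ± 0.14 and the K end 9.94 ± 1.77. Already at Div5 the class II CpGs stood 3.66 ± 1.1 points under Div0, where class III stood 1.07 ± 0.11, the K end 0.82 ± 0.02 and the D and Q segment 1.61 ± 0.24 under it. At Div8neg class II, class III, the K end and the D and Q segment stood 7.44 ± 0.84, 5.54 ± 0.18, 4.68 ± 0.75 and 8.18 ± 0.75 points under Div0.

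These segment shares are descriptions with no test of the difference between segments, and CpGs within a segment share fragments. The 32 lower CpGs of the class II segment lay in 18 places more than 500 bp apart. With the CpGs of Psmb9 left out, a gene that lies among the class II genes and is described next, 26 of 126 (20.6%) were lower and the mean difference was 13.5 points. Without the Div0 sample of host 197, 13 class II CpGs were lower (9.35%), beside 3.05% of all methylated CpGs, 26 in class III (4.12%), 2 at the K end (0.885%) and 1 in the D and Q segment (3.85%). Without the Div8pos sample of host 197, 15 CpGs at the K end were lower (6.70%, beside 7.09% of all). In the other comparisons the class II segment held 7 of 136 CpGs lower in Div8neg than in Div0 (5.15%, beside 1.27% of all methylated CpGs), and 8 of 140 lower in Div8pos than in Div8neg (5.71%, beside 1.04%). With Psmb9 left out these became 4 of 126 (3.17%) and 4 of 130 (3.08%).

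**Figure D2:**
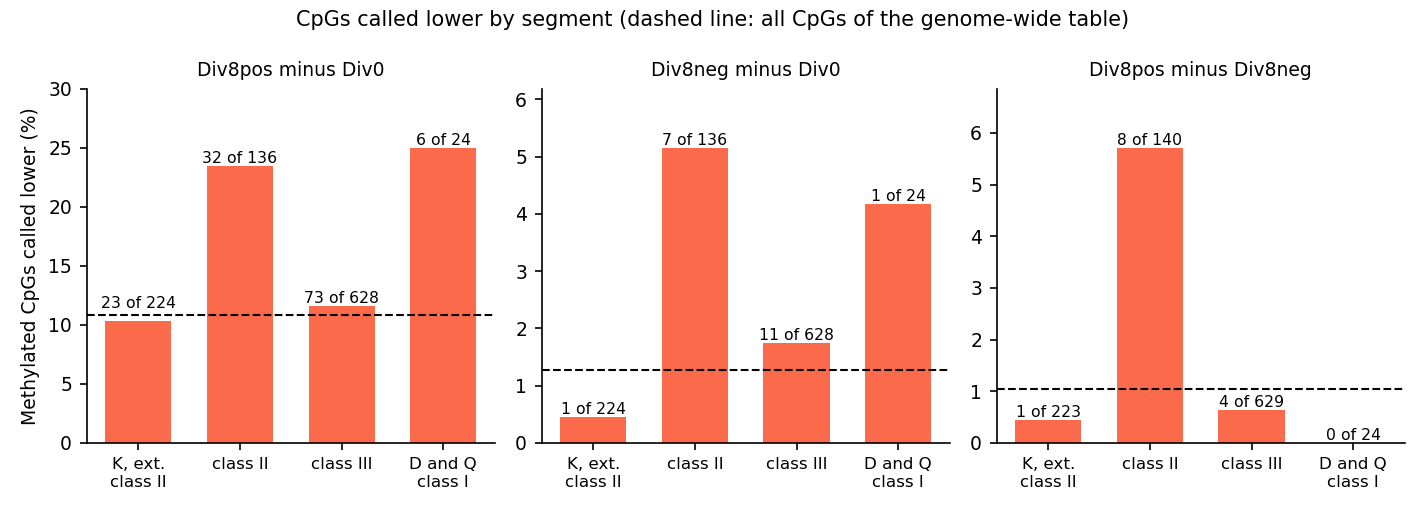
Share of methylated CpGs (at least 20% in the comparison's second fraction) called lower, in % on axes that start at 0, by segment of the interval and for 3 comparisons, with the number lower and the number measured above each bar. The dashed line is the share over all such CpGs of the genome-wide table, which the class II bar exceeds in each comparison, with 23.5% beside 10.8% for Div8pos against Div0.

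By position relative to genes, the interval's methylated CpGs were lower in Div8pos than in Div0 at 45 of 207 in promoters (21.7%, beside 13.0% of all promoter CpGs of the genome-wide table), where promoter means 2500 bp before to 500 bp after a start site. The shares were 18 of 109 between genes (16.5%, beside 10.8%), 49 of 336 in introns (14.6%, beside 12.3%) and 22 of 360 in exons outside promoters (6.11%, beside 6.35%). Of the 2242 CpGs, 890 were promoter CpGs, and 207 of these held at least 20% at Div0.

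At the level of genes (limma on the mean of a gene's CpGs, genes with at least 5 CpGs, adjusted over all 17217 genes, and a difference of at least 10 points), 15 of the 87 genes tested in the interval were lower in Div8pos than in Div0 and 0 were higher, with 68 at an unadjusted p under 0.05. Over all genes 15.7% were lower and 0% higher. The median difference was -4.92 points over the 87 genes and -5.17 over all genes tested. Between Div8neg and Div0, 4 were lower (H2-DMb1, H2-Eb1, Psmb9 and Lst1), beside 1.57% of all genes, and between Div8pos and Div8neg 2 were lower (Psmb9 and Slc44a4), beside 2.13%. Without the Div8pos sample of host 196, the last comparison gave 4 genes. In fixed windows of 50 kb, 4 of 31 were lower in Div8pos than in Div0, and 0 were higher, beside 26.9% and 0.00973% of all windows, with losses of 10.8 to 14.1 points. One of these, from 34450001, held the H2-Eb2 CpGs and the H2-Eb1 CpGs from 34451228 on. The H2-Eb1 CpG at 34449216 fell in the window before it, which was not called (-3.65 points). The other 3 windows began at 34550001, 34650001 and 34850001. Between Div8neg and Div0, and between Div8pos and Div8neg, 0 windows were called by limma, with 18 and 17 at an unadjusted p under 0.05, beside 2.94% and 4.15% of all windows lower.

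Of the 12 class II genes listed, 7 had a measured CpG and 5 were tested, of which 2 were lower in Div8pos than in Div0, beside 15.7% of all genes. Both, H2-DMb1 and H2-Eb1, were lower in Div8neg too. Over the 7 genes, 12 of 54 methylated CpGs (22.2%) were called lower, beside 10.8% of all methylated CpGs.

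H2-DMb1, a beta chain of the peptide loader H2-M, was read at 10 CpGs between 34289046 and 34300533, from just upstream of its start through its introns. In this stretch 8 CpGs from 34289046 to 34296819 also lie within introns of the annotated H2-DMb2 gene, and 5 of them were called lower in Div8pos than in Div0. Its mean level from Div0 through Div1, Div3, Div5 and Div8neg to Div8pos was 89.0, 86.2, 89.7, 85.7, 77.3 and 72.2% in host 196, and 92.2, 91.7, 89.0, 86.0, 80.3 and 67.6% in host 197. The level was flat through Div3 and the Div8pos values lay under all others in both hosts. Div8pos averaged 69.9 ± 3.21%, against 90.6 ± 2.27% in Div0, a difference of -20.7 ± 2.05 points (SE, adjusted p = 2.69e-05), and Div8neg averaged 78.8 ± 2.14%, 11.8 points under Div0 (adjusted p = 0.00352). The difference of Div8pos from Div8neg was -8.90 points (adjusted p = 0.00718), short of the 10 points required. Its leading CpGs were a pair upstream of the start. At 34289063, at -1072 bp from the start, the level was 59.5% and 55.8% in Div8pos (hosts 196 and 197), against 91.7% and 95.5% in Div0 (adjusted p = 5.3e-08, 24 to 86 reads), and it was 24.05 points lower in Div8neg than in Div0 (adjusted p = 0.00216). At 34289046 it was 54.5% and 57.6% in Div8pos, against 90.0% and 100% in Div0 (adjusted p = 0.000128, 10 to 44 reads). Without the Div0 sample of host 197, the call at 34289046 (adjusted p = 0.264) and that of Div8neg at 34289063 (adjusted p = 0.623) were lost.

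H2-Eb1, the beta chain of I-E, was read at 7 CpGs between 34449216 and 34451429, all in its introns and exons. Its mean level from Div0 to Div8pos was 83.0, 71.1, 72.0, 63.4, 60.9 and 56.5% in host 196, and 74.3, 72.1, 71.3, 68.6, 60.9 and 55.0% in host 197. The undivided samples differed by more than any other pair of hosts, and the order of fractions from Div3 on was the same in both. Div8pos averaged 55.8 ± 1.06%, against 78.6 ± 6.14% in Div0, a difference of -22.9 ± 2.47 points (SE, adjusted p = 4.3e-05). Div8neg was 17.7 points under Div0 (adjusted p = 0.00156), and Div8pos was 5.13 points under Div8neg (adjusted p = 0.107). Its 3 lower CpGs belong to the 5 CpGs with the largest differences among those assigned to the listed class II genes. At the intronic CpG 34449216 the level was 25% and 45% in Div8pos, against 100% and 75% in Div0 (adjusted p = 0.00708), on 10 to 20 reads, and the call was lost without the Div0 (adjusted p = 0.108) or the Div8pos sample of host 196 (adjusted p = 0.0539). At 34451385 it was 43.1% and 34.4% in Div8pos, against 81.0% and 67.7% in Div0 (adjusted p = 0.000652), and at 34451429, 44 bases on, 9.80% and 13.1% in Div8pos, against 42.9% and 41.7% in Div0 (adjusted p = 0.000266). The last call was lost without the Div0 sample of host 197 (adjusted p = 0.0879).

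By their means, the other class II genes moved less. H2-DMa, the alpha chain of H2-M, averaged 46.5 ± 0.25% over 42 CpGs in Div8pos, against 54.3 ± 1.42% in Div0, a difference of -7.85 points (adjusted p = 4.91e-05). H2-Ob, a chain of the inhibitor H2-O, was 7.25 points lower (86.7 ± 2.48% in Div8pos, against 94.0 ± 0.35% in Div0, 5 CpGs, adjusted p = 0.000571). Both differences are larger than the spread between hosts and smaller than the 10 points required. H2-Ab1, the beta chain of I-A, averaged 16.1 ± 4.29% in Div8pos and 16.4 ± 0.82% in Div0 (difference -0.28 ± 1.98 points, SE, adjusted p = 0.903). H2-Aa, the alpha chain of I-A, had 4 CpGs and no test, at 87.4% and 88.0% in Div8pos, against 95.4% and 98.5% in Div0. The 7 CpGs in an exon of H2-Oa, the partner chain of H2-Ob, at 34231458 to 34231759, have their nearest start site in another gene. They averaged 22.7 ± 4.33% in Div0, 37.0 ± 0.94% in Div8neg and 27.2 ± 1.38% in Div8pos, and none was called in Div8pos against Div0.

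H2-Eb2, a relative of H2-Eb1, supplied the CpG called higher in Div8neg than in Div0. At 34462736, 115 bp after its start, the level was 11.8% of 17 reads and 33.3% of 30 reads in Div8neg (hosts 196 and 197), against 0% and 2.08% in Div0 (adjusted p = 0.0161), and it was 4% and 0% in Div8pos, lower than in Div8neg (adjusted p = 0.00794). The value rests mainly on host 197: without its Div8neg sample the difference from Div0 was 10.7 points (adjusted p = 0.708) and that of Div8pos from Div8neg -9.76 (adjusted p = 0.683). The first call was also lost without either Div0 sample (adjusted p = 0.0807 without host 196 and 0.434 without host 197), and the second without the Div8pos sample of host 197 (adjusted p = 0.489).

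**Figure D3:**
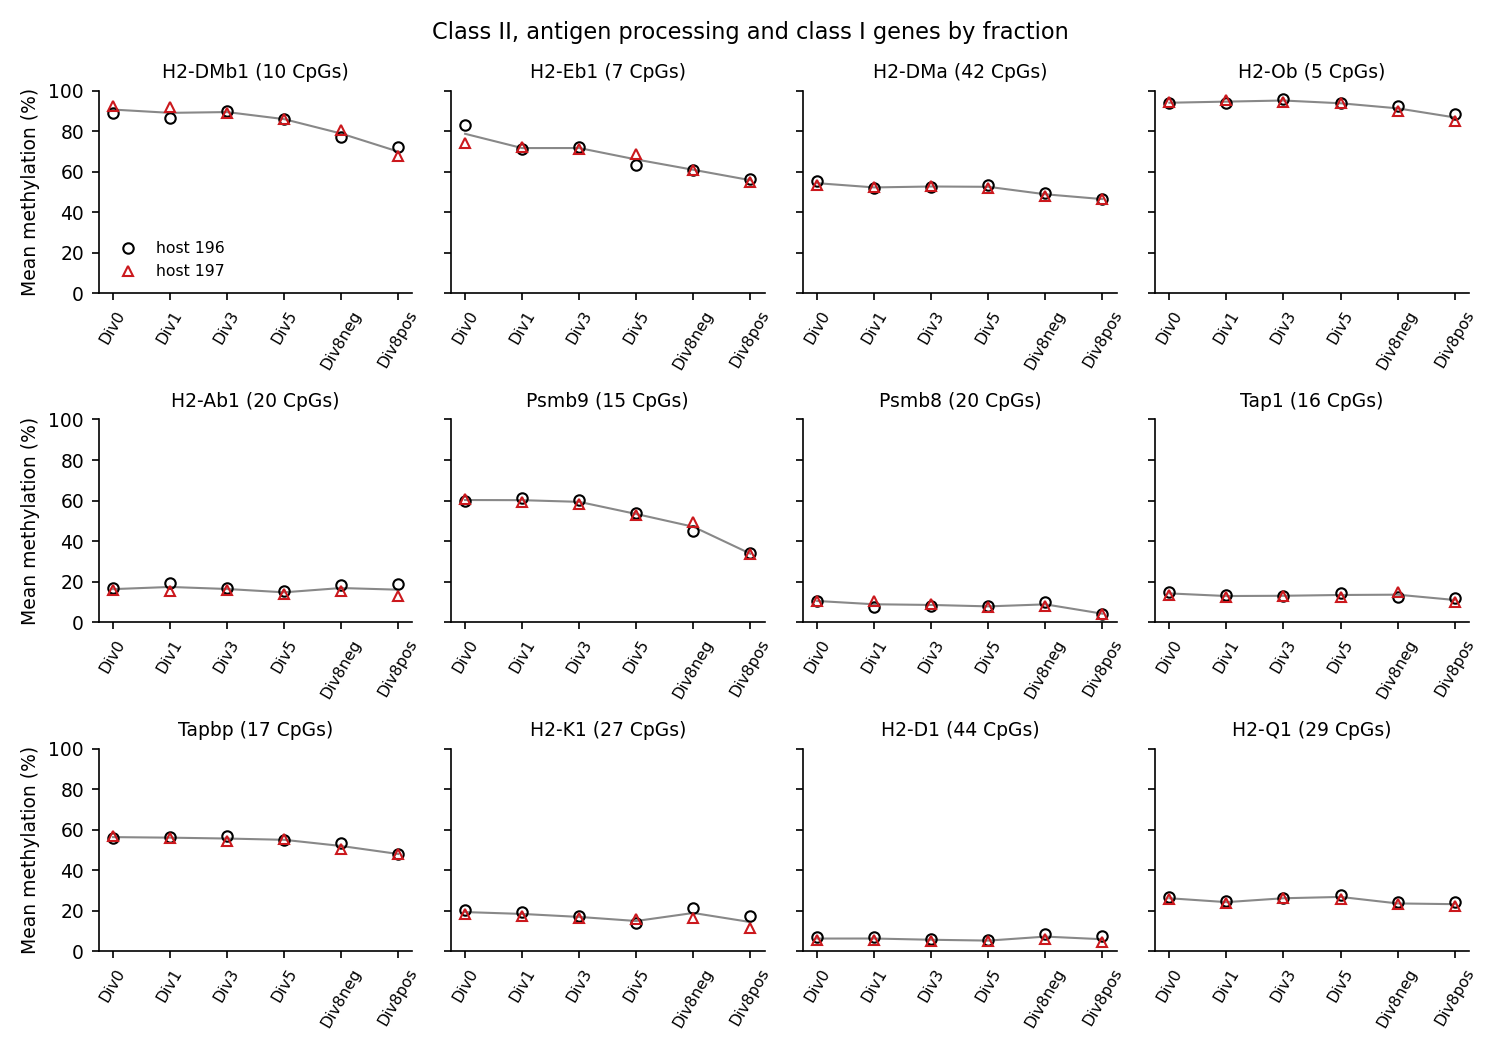
Mean methylation (%) of class II, antigen processing and class I genes in the 6 fractions, from Div0 to Div8pos, with a black circle for host 196, a red triangle for host 197 and a line through the mean of both. H2-DMb1, H2-Eb1 and Psmb9 descend in both hosts, to 69.9%, 55.8% and 33.8% in Div8pos, while H2-K1, H2-D1 and H2-Ab1 sit low in every fraction.

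All 5 antigen processing genes were tested, and 1, Psmb9, was lower in Div8pos than in Div0, beside 15.7% of all genes. Over the 5, 12 of 27 methylated CpGs (44.4%) were called lower, beside 10.8% of all methylated CpGs. Psmb9 encodes a catalytic subunit of the immunoproteasome and shares a bidirectional promoter with Tap1, which lies next to it on the opposite strand. Its 15 CpGs averaged 59.8, 61.3, 60.2, 53.9, 44.8 and 34.1% from Div0 to Div8pos in host 196, and 60.8, 59.2, 58.6, 53.0, 49.4 and 33.6% in host 197. The level held through Div3, was lower at Div5 and Div8neg and lowest at Div8pos in both hosts. Div8pos averaged 33.8 ± 0.36%, against 60.3 ± 0.77% in Div0, a difference of -26.4 ± 1.41 points (SE, adjusted p = 2.27e-06). Div8neg was 13.2 points under Div0 (adjusted p = 0.000623), and Div8pos 13.3 points under Div8neg (adjusted p = 0.000361).

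The loss at Psmb9 was concentrated in 6 CpGs between 34322706 and 34323080, in the body of Psmb9 1194 to 1568 bp after its start and inside the window of 2500 bp upstream of Tap1. They averaged 84.5, 86.8, 81.5, 66.9, 50.2 and 26.7% from Div0 to Div8pos in host 196, and 83.9, 82.0, 79.2, 67.1, 57.3 and 22.6% in host 197. All 6 were called lower in Div8pos than in Div0, 3 of them (34322930 to 34323080) in Div8neg than in Div0, and 4 of the 5 up to 34322946 in Div8pos than in Div8neg. At 34322930 the mean level was 91.9, 84.2, 78.5, 61.1, 48.1 and 15.0% from Div0 to Div8pos, and Div5 was already 30.8 points under Div0 (adjusted p = 0.00897, 28 to 80 reads). That Div5 call was lost without the Div0 sample of host 196 (adjusted p = 0.355) or the Div5 sample of host 197 (adjusted p = 0.786), while the calls of Div8neg and Div8pos against Div0 held in every fit that left out 1 sample.

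On the Tap1 side the level was low from the outset. The 14 CpGs from 34324718 to 34325119, which lie 216 to 617 bp after the Tap1 start and outside the Psmb9 promoter window shown above, averaged 2.61 ± 1.41% in Div0. Within 500 bp of the Tap1 start, 11 CpGs averaged 2.37 ± 1.3% in Div8pos, against 2.49 ± 1.47% in Div0. The sparser CpGs covered only by the summed reads of both hosts extend the low stretch on either side. At 34322687 the level was 96.7, 77.2, 63.0 and 42.4% in Div0, Div5, Div8neg and Div8pos. At 34323103, 23 bases beyond the 6 CpGs, it was 71.0, 79.2, 35.3 and 6.45%, and at 34323450, between them and the start, 45.2, 28.0, 14.3 and 10.0%. These single CpGs rest on 14 to 59 reads a fraction. A separate CpG, 34317836, at 6438 bp after the start, stood at 89.7, 34.3, 28.1 and 19.0%, with most of its difference already present at Div5. Between them, 3 CpGs at 34321333 to 34321341 stayed between 77.9% and 87.7% in Div8pos, against 94.7% to 100% in Div0, while the next CpG, 34321377, was at 47.2% in Div8pos, against 81.1% in Div0.

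**Figure D4:**
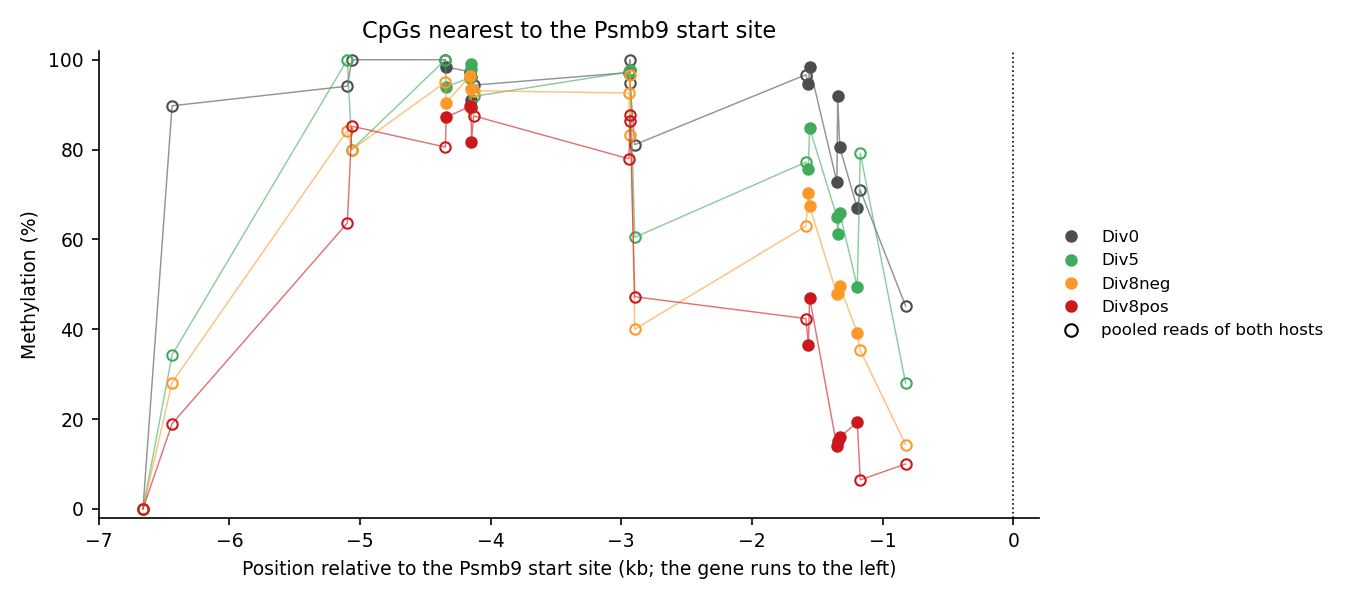
Methylation (%) of single CpGs nearest to the Psmb9 start site in Div0, Div5, Div8neg and Div8pos, against distance from that start in kb, with the gene body to the left. Filled points are means of both hosts and open points are the summed reads of both. The lines separate most around 1.2 to 1.6 kb into the gene, where the 6 CpGs average 24.6% in Div8pos and 84.2% in Div0.

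The other processing genes stayed under the 10 points required. Psmb8, the neighbouring immunoproteasome subunit, averaged 4.25 ± 0.08% in Div8pos, against 10.5 ± 0.02% in Div0 (-6.26 points, adjusted p = 0.000333), and 1 of its CpGs, 34333830, was also lower in Div8pos than in Div8neg by 31.6 points (adjusted p = 0.000904). From 10.5% at Div0, the Psmb8 mean could reach the 10 points only by losing nearly all of its methylation. Tapbp, which holds class I molecules at the transporter, was 8.31 points lower (adjusted p = 0.000115). The means of the transporter genes themselves differed by -3.24 points at Tap1 (adjusted p = 0.0199) and -0.69 at Tap2 (adjusted p = 0.507). The Tap1 mean includes the 11 CpGs near its start, at 2.49% in Div0. Within Tap1 introns, 2 CpGs at 34329453 and 34329634 averaged 69.8 ± 2.70% in Div8pos, against 95.8 ± 1.48% in Div0, and both were called lower. Of 10 further Tap1 CpGs reached only by summed reads, 2 were at least 20 points lower and 0 that much higher.

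Of the 14 class I genes listed, 5 had measured CpGs and were tested, and 0 were called in any of the 3 comparisons. H2-Q1 was 2.92 points lower in Div8pos than in Div0 (adjusted p = 0.0113). H2-K1 averaged 14.4 ± 4.25% in Div8pos and 19.4 ± 1.67% in Div0 (-4.92 points, adjusted p = 0.0572), H2-D1 5.96 ± 2.25% and 6.30 ± 0.80% (adjusted p = 0.805), H2-K2 2.22 ± 1.16% and 1.98 ± 0.84% (adjusted p = 0.778), and H2-Q2 5.08 ± 0.10% and 6.30 ± 0.33% (adjusted p = 0.164). Their start sites were low throughout, at 1.09 to 6.54% on average in every fraction within 500 bp of the H2-K1, H2-K2, H2-D1, H2-Q1 and H2-Q2 starts. Of the few methylated CpGs near these genes, 6 of 17 (35.3%) were called lower in Div8pos than in Div0, beside 10.8% of all methylated CpGs. Of these, 3 made a region between genes at 34128694 to 34128797, which averaged 67.6, 62.4, 53.1, 49.5, 41.9 and 32.8% from Div0 to Div8pos. It lay about 6 kb from the nearest annotated H2-K1 start, which is not the start described next.

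At the H2-K1 start the hosts parted. Over the 19 CpGs within 500 bp of it, host 196 had 4.23, 4.35, 2.50, 0.908, 10.8 and 7.55% from Div0 to Div8pos, and host 197 had 2.41, 1.14, 2.23, 1.27, 2.24 and 2.11%. The Div8neg and Div8pos samples of host 196 stood above the other 10 samples. H2-Ab1 showed a like split, with 16 CpGs within 500 bp of its start at 10.1% in the Div8pos sample of host 196 and 1.76% in that of host 197. Over all 1230 CpGs of the interval under 20% at Div0, the Div8pos means were 3.39% in host 196 and 2.16% in host 197, beside 3.38% and 2.85% over all such CpGs of the genome.

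Among the other genes of the interval, 12 were lower in Div8pos than in Div0, 10 of them from the 61 tested genes outside every list and 2 of them complement genes, beside 15.7% of all genes, which is near the share of the 61. C4b, a gene for complement component 4, averaged 81.1 ± 0.27% in Div8pos, against 93.3 ± 1.75% in Div0 (-12.2 points, adjusted p = 7.33e-06). Cfb, which encodes complement factor B, averaged 79.6 ± 4.51% in Div8pos, against 91.4 ± 1.61% in Div0 (-11.8 points, adjusted p = 0.000369). The third complement gene tested, C4a, was 7.23 points lower (adjusted p = 0.000168), so 2 of 3 passed. The Cfb difference was -8.60 points without the Div8pos sample of host 197. The lists of butyrophilin-like, heat shock and Ly6 family genes had 3, 2 and 2 members tested and 0 called, and the only TNF family ligand tested was not called. The median differences of the first 3 lists were -6.07, -4.55 and -8.93 points and that of the TNF ligand was 0.79, beside -5.17 over all genes tested.

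The largest differences among the others were those of Lst1, a leukocyte-specific transcript, and Slc44a4, a membrane transporter of the choline transporter-like family. Lst1 (6 CpGs) averaged 50.1 ± 1.12% in Div8pos, against 72.4 ± 5.90% in Div0, a difference of -22.3 ± 4.30 points (SE, adjusted p = 0.00114). It was 12.7 points lower in Div8neg than in Div0 (adjusted p = 0.0427), a call lost in 8 of the 12 fits that left out 1 sample (adjusted p of 0.0538 to 0.256 there) and with CpGs within 5 kb (adjusted p = 0.107), with the difference at -6.25 points without the Div8neg sample of host 197. Slc44a4 (10 CpGs) had 73.8% and 74.3% in Div0 (hosts 196 and 197), 73.7% and 63.4% in Div8neg, and 51.2% and 56.5% in Div8pos. Div8pos was 20.2 ± 3.53 points under Div0 (SE, adjusted p = 0.000644) and 14.7 points under Div8neg (adjusted p = 0.00849). Without the Div8neg sample of host 196 the second difference was -9.59 points and the call was lost.

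Another 6 genes complete the 10 with the largest differences. LOC547349, at the D end, was 15.6 points lower in Div8pos than in Div0 (adjusted p = 5.74e-05), and Aif1, the calcium-binding protein known from macrophages, 13.4 points lower (adjusted p = 0.00256). Notch4, a Notch receptor gene at the border of class II and class III, was 12.3 points lower over 30 CpGs (adjusted p = 4.01e-05), and Gpsm3, a modulator of G protein signalling, 12.1 points lower over 26 CpGs (adjusted p = 3.74e-06). Atp6v1g2, a subunit of the vacuolar proton pump, was 11.8 points lower (adjusted p = 0.000495) and Ager, the receptor for advanced glycation end products, 10.96 points lower (adjusted p = 3.15e-05). All of these were lower in both hosts, which was a condition for naming them, and some sat close to the 10 points required. The Atp6v1g2 difference was -8.95 points without the Div0 sample of host 196, that of Ager -9.88 with at least 20 reads in every sample, and that of Gpsm3 -5.32 with CpGs within 5 kb only. With genes taken from the files' symbol column instead, Atp6v1g2 turned to 0.94 points (adjusted p = 0.347), and Gpsm3 (-2.57), Notch4 (-9.16) and Ager (-7.36) lost their calls. The 2 remaining called genes, Egfl8 and Cd320, fell by 10.6 and 10.03 points. Egfl8 stood at -9.60 without the Div0 and -7.99 without the Div8pos sample of host 197, and Cd320 at -9.23 without the Div0 and -8.94 without the Div8pos sample of host 196.

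Runs of at least 3 CpGs called lower in Div8pos than in Div0, at most 500 bp apart, formed 10 regions, of which those of Psmb9 and H2-K1 are given above. Runs were formed inside the interval only. No share over the genome stands beside this count, so it does not tell whether such regions are more or less frequent here than elsewhere. Brd2, a bromodomain protein of the BET family, lost methylation in exonic sequence at 34250189 to 34250277, with 60.4 ± 3.53% in Div8pos, against 92.3 ± 0.17% in Div0. Div8neg lay between, at 78.5 ± 4.90%. At 35033394 to 35033585, in the shared promoter stretch of Zbtb12, a zinc finger gene, and Ehmt2, the histone H3K9 methyltransferase G9a, 8 CpGs averaged 45.7 ± 0.11% in Div8pos, against 77.1 ± 12.5% in Div0. The Div0 spread is wide, 68.3% in host 196 and 86.0% in host 197, and both Div8pos samples (45.8% and 45.7%) and both Div8neg samples (56.3% and 57.8%) lay under it. Of these CpGs, 3 at 35033479 to 35033585 formed, beside Psmb9, the other region lower in Div8neg than in Div0, with 44.2 ± 4.11% in Div8neg and 72.3 ± 15.9% in Div0.

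The Slc44a4 region covers 35051379 to 35051402, within 31 bp of its start, with 49.0% and 50.0% in Div8pos, against 86.0% and 88.9% in Div0. There Div8neg gave 86.1% in host 196 and 66.7% in host 197, so the hosts disagree on whether it resembled Div0. Lsm2, an RNA-binding protein of the splicing and decay machinery, had 43.4 ± 2.44% in an intronic region at 35119880 to 35120306 in Div8pos, against 77.5 ± 1.94% in Div0, a difference of -34.0 points over 4 CpGs. With at least 20 reads in every sample only the CpG at 35119880 was left, with -22.1 points. The Lst1 region at 35327793 to 35327835 had 57.4 ± 2.07% in Div8pos, against 93.7 ± 6.65% in Div0. Notch4 had a region upstream (34694642 to 34695207, 76.1 ± 1.61% in Div8pos, against 97.2 ± 0.23% in Div0) and one in exonic sequence (34705376 to 34705399, 69.5 ± 1.48% in Div8pos, against 91.9 ± 1.01% in Div0). LOC547349 had 65.4 ± 3.32% in Div8pos at 35419113 to 35419254, against 88.5 ± 1.11% in Div0. In all 10 regions both Div8pos samples lay under both Div0 samples, which follows from how the regions were called.

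**Figure D5:**
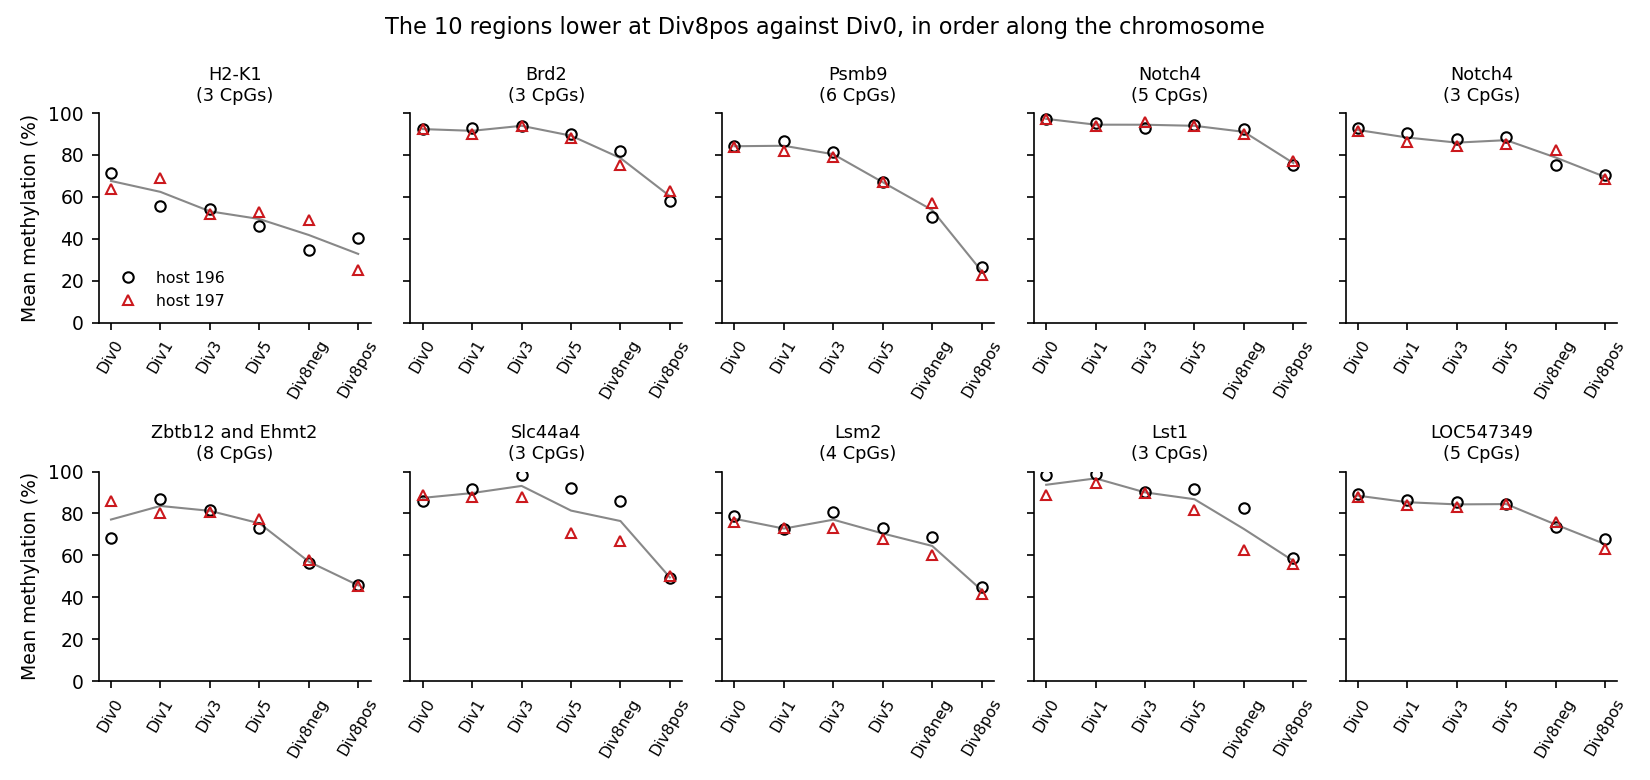
Mean methylation (%) of the 10 regions lower in Div8pos than in Div0, in chromosome order, across the 6 fractions from Div0 to Div8pos, with a black circle for host 196, a red triangle for host 197 and a line through the mean of both. The Psmb9 region ends lowest, at 24.6%, and the hosts lie farthest apart at Div0 for the Zbtb12 and Ehmt2 region.

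A few single CpGs outside these genes were picked out after their values were seen. At 34235736, a CpG between genes in the class II segment whose nearest start site has no symbol, the mean level was 71.4, 76.3, 55.7, 56.5, 22.2 and 4.79% from Div0 to Div8pos. It was lower in Div8pos (adjusted p = 2.08e-10) and in Div8neg (adjusted p = 0.00191) than in Div0. At 35025182, the single CpG assigned to the complement gene C2 and at -6136 bp from its start, it was 68.3, 66.0, 39.5, 21.8, 28.9 and 7.70%, and Div5 was 46.5 points under Div0 (adjusted p = 0.0128), the only CpG besides that of Psmb9 called lower at Div5. That call was lost without the Div0 sample of host 196 (adjusted p = 0.233) or 197 (adjusted p = 0.469), or without the Div5 sample of host 197 (adjusted p = 0.878). The only CpG called higher in Div8pos than in Div0 was 35136184, in the promoter stretch of a gene without a symbol in class III. It had 36.4% and 34.5% in Div8pos, against 8.70% and 2% in Div0 (adjusted p = 0.000133), and it was higher in Div5 than in Div0 too (20% and 40%, adjusted p = 0.028). Both calls were lost without the Div0 sample of host 197 (adjusted p = 0.175 for Div8pos and 0.883 for Div5), and that of Div5 also without the Div5 sample of host 197 (adjusted p = 0.878).

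The 2198 CpGs reached only by summing hosts were also lower on average in Div8pos than in Div0, with no test. Their mean was 39.7% in Div8pos, against 45.7% in Div0, and 251 were at least 20 points lower and 17 at least 20 points higher. These counts rest on a median of 31 reads a fraction. CpGs of the wider table outside the interval were not counted, so no share over all CpGs stands beside them. In the class II segment the 320 such CpGs averaged 42.4% in Div8pos and 50.3% in Div0. Psmb9 again stood low, with 17 CpGs averaging 57.3% in Div8pos, against 79.6% in Div0, followed among the listed class I, class II and processing genes with at least 5 such CpGs by H2-K1 (40.5% and 56.0%), H2-Ob (59.6% and 73.4%) and H2-DMa (55.4% and 68.9%). H2-DMb1, which was lower at its deeply covered CpGs, averaged 80.5% and 85.4% over its 6 further CpGs, and H2-Eb1 38.7% and 48.5% over 9. The H2-Eb1 mean joins opposite differences. At 3 CpGs upstream, 34437287 to 34437385, Div8pos was 52.5 to 71.1 points lower than Div0. At 4 CpGs 195 to 231 bp after the nearest annotated start, Div8pos was 17.7 to 39.9 points higher. For example, 34446736 had 61.3% of 31 reads in Div8pos, against 21.4% of 14 reads in Div0. That annotated start was not matched to the start of the H2-Eb1 promoter shown above, so the distance of these CpGs from that promoter is not given.

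Outside the interval, the factors that switch class II on were read as a listed set of 8 genes, of which 2 were lower in Div8pos than in Div0. Ciita on chromosome 16, the class II coactivator, averaged 77.2 ± 1.15% in Div0, 68.7 ± 0.35% in Div8neg and 63.9 ± 0.02% in Div8pos over 24 CpGs (-13.3 points for Div8pos against Div0, adjusted p = 5.69e-06). Rfxank, a subunit of the RFX complex on class II promoters, was 11.9 points lower (adjusted p = 0.000116). The genes of the other RFX subunits and of NF-Y, and Cd74, the class II invariant chain, differed by -3.36 to -8.24 points and were not called. Of the plasma cell markers tested 2 of 5 were lower in Div8pos than in Div0, and of the T cell markers 1 of 2, with Cd3e 11.8 points lower. All of these counts stand beside 15.7% of all genes called lower. The files hold no expression, so the identity of the sorted cells could not be checked from marker RNA.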

How the data were processed

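Reduced representation bisulfite libraries from 12 samples (6 fractions from each of 2 hosts) were cut with MspI and TaqI and read as single ends, per the labels' protocols. The authors deposited methylated and unmethylated read counts for each CpG, with strands joined, and the methylation fraction, which equalled methylated over all reads. Alignment used Bismark and Bowtie2 on mm9, per the submitters' processing notes, and no versions are stated. The deposited tables require at least 10 reads in every sample (the main table) or in every fraction after summing hosts. Nearest start sites, distances and annotation classes are the authors'. Their symbol column names a neighbouring transcript for many MHC CpGs, so genes were named through the identifier of the nearest start site (19713 of 19816 identifiers had a symbol in RefSeq names for GRCm38.p6).

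A quasi-binomial model of read counts by fraction was fitted to every CpG over all 12 samples, with the dispersion moderated across all CpGs (limma squeezeVar, common dispersion 1.157), Benjamini-Hochberg adjustment over all 760348 CpGs and a size limit of 20 points. Genes and 50 kb windows with at least 5 CpGs were tested with limma on mean percentages, adjusted over 17217 genes or 30829 windows, with a limit of 10 points. R 4.3.3, limma 3.58.1 and the R package data.table (version 1.17.8) were used, and the models were tested on simulated data. Named genes are all class I, class II and processing genes with a CpG, and 10 other called genes. Those 10 had the largest differences among the other called genes that moved the same way in both hosts. All regions and the 5 class II CpGs with the largest difference are also named. CpGs chosen after their values were seen are named as such. The members and lists were chosen with earlier results of these data known. Samples with the same host number come from the same animal, per the labels. Their deviations from the fraction means correlated by -0.0038 to 0.0075 over 15 pairs of fractions (215128 CpGs), and host was left out of the main model and added as a block in an alternative. With 2 hosts, p-values of genes and windows measure the spread between these samples. For single CpGs the moderation gave every CpG the common dispersion. Their p-values therefore reflect read counts and that dispersion, not a CpG's own spread between hosts, and coverage limits them.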

Additional observations from a re-analysis of the deposited data

How the results depend on the processing

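With the replicate block (host as a term), Div8pos against Div0 gave 135 CpGs called in either direction, 15 genes and 4 windows, Div8neg against Div0 20 CpGs, and Div8pos against Div8neg 12 CpGs, and this changed no called gene or count by more than 1.5 times. With at least 20 reads in every sample, the calls were 50 of 824 CpGs for Div8pos against Div0, 11 for Div8neg against Div0, 6 for Div8pos against Div8neg and 1 for Div5. By segment 6 were lower at the K end, 11 in class II (22.0%, beside 9.27% of all), 30 in class III and 3 in D and Q, and there were 9 genes for Div8pos against Div0 and 7 and 1 windows for Div8pos and Div8neg against Div0. A limit of 10 points gave 284, 38 and 20 CpGs, of which for Div8pos against Div0 53, 59, 157 and 10 were lower in the 4 segments. With each CpG's own dispersion 0 CpGs were called in any comparison or segment, with 337 of the interval's CpGs at an unadjusted p under 0.05 for Div8pos against Div0. Genes by CpGs within 5 kb gave 2 for Div8neg against Div0, windows of 20 kb gave 16, 4 and 2, and genes from the symbol column, chosen after seeing the data, gave 1 for Div8pos against Div8neg and gave 0.941 points for Atp6v1g2 in Div8pos against Div0 (the cause was not tested), with Ager at -7.36, Notch4 at -9.16 and Gpsm3 at -2.57, and Slc44a4 at -7.92 in Div8pos against Div8neg. Over 47 named genes, CpGs and regions, 28 of 124 values under other settings and 49 of 564 with 1 sample left out lost a call, reversed or, in regions, moved by more than the spread between hosts. Mean differences from Div0 at Div1, Div3, Div5, Div8neg and Div8pos were -1.59, -2.64, -1.75, -4.55 and -5.53 points from summed reads, and -0.337, -0.354, -0.925, -2.61 and -5.48 over the wider table. With at least 20 reads they were -0.0204 at Div1, -0.871 at Div5 and -4.54 at Div8pos.

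Leaving out 1 sample in turn gave 42 to 139 CpGs for Div8pos against Div0, 4 to 24 for Div8neg against Div0, 3 to 13 for Div8pos against Div8neg, 0 to 4 for Div5, and 0 for Div3 and Div1. By segment it gave 2 to 23, 13 to 32, 26 to 78 and 1 to 6 lower, with 13 to 16, 3 to 6 and 2 to 4 genes and 4 to 5, 0 and 0 to 1 windows. The means ranged from -0.525 to 0.176 points at Div1 (0.176 without the Div0 sample of host 196, 0.0736 without the Div1 sample of host 197), -0.796 to -0.0946 at Div3, -1.12 to -0.419 at Div5, -2.71 to -2.01 at Div8neg and -5.60 to -4.36 at Div8pos.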
